A study of Bos grunniens with 6 samples.

Results

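CDKN1A, MDM2 and CDKN2B are 3 genes linked to cell cycle arrest, and they were read here as 3 of the 15646 genes of a yak (Bos grunniens) expression table. They were chosen by symbol, and the table carries CDKN1A, which encodes the inhibitor p21, under its older name CIP1. TOP2A and MCM3, genes of DNA replication and mitosis, were read beside them as a proliferation reference. The RNA came from wild-type skin cells that were isolated and then cultured, with 3 libraries from cells of the dermal papilla (DPC) and 3 from cells of the hair matrix (HMC). The papilla is a mesenchymal cluster that instructs the follicle from below, and the matrix is the epithelium around it whose divisions build the hair shaft. Both types grew in DMEM/F12 with 10% fetal bovine serum, 10 ng/mL IGF1 and 20 ng/mL EGF, so the growth factors of the medium were shared by all 6 cultures. The labels number the cultures as biological replicates but name no donor animals and no passage, so the p-values measure the spread between these cultures.

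A cell leaves or pauses the division cycle in G1 when inhibitor proteins hold back the cyclin-dependent kinases (CDK) that phosphorylate the retinoblastoma protein RB. p21, from CDKN1A, binds cyclin-CDK complexes and is a classical transcriptional target of the tumour suppressor p53. MDM2 is another p53 target and encodes the ubiquitin ligase that marks p53 for degradation, which closes a negative feedback loop. CDKN2B encodes p15, an inhibitor of CDK4 and CDK6 that is best known as a gene induced by TGF-beta in epithelial cells. In the hair follicle the matrix is among the fastest dividing tissues of the skin, whereas dermal papilla cells rarely divide in place.

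All 3 genes had more RNA in HMC than in DPC, CDKN1A by a large factor and MDM2 and CDKN2B by small and nearly equal ones. TOP2A and MCM3 went the other way. Levels are given as deposited, in FPKM (fragments scaled to the length of the gene model and to the mapped fragments of the library), and differences as log2(FPKM + 1) in DPC minus HMC, so that a negative difference means more RNA in HMC. Values after ± are SDs over the 3 libraries of a type. In a bulk culture, fewer cells that express a gene and less of its RNA per cell cannot be told apart.

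**Figure D1:**
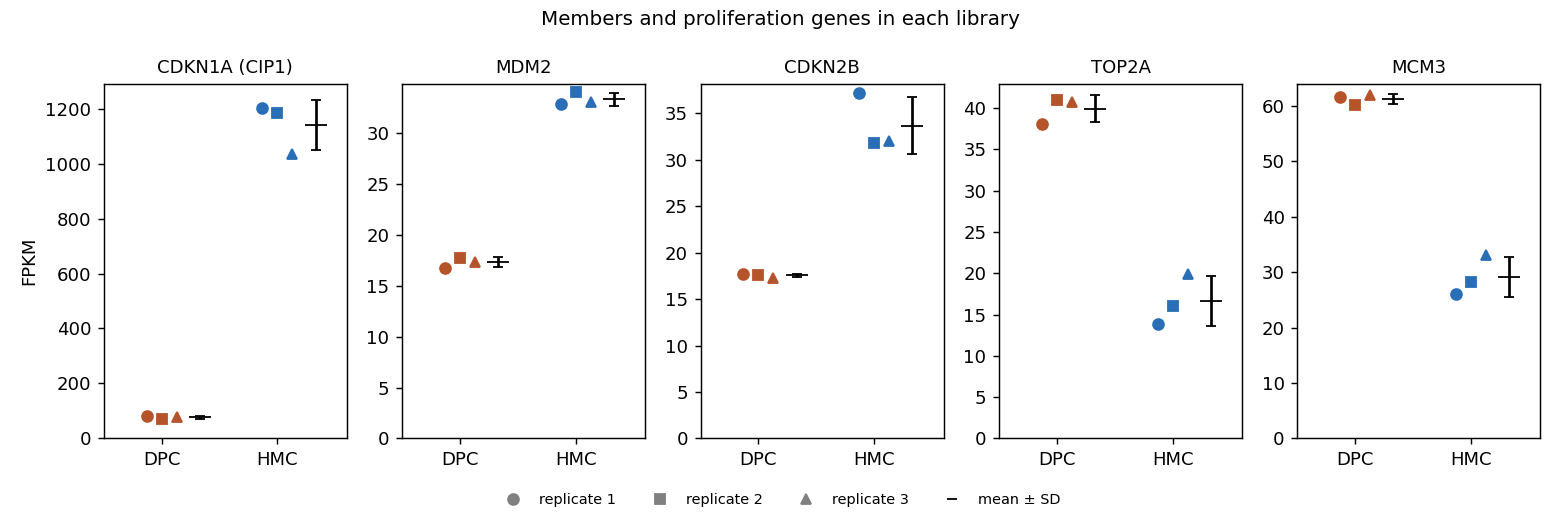
FPKM of CDKN1A, MDM2, CDKN2B, TOP2A and MCM3 in each library, with DPC and HMC on the x axis, a separate linear y axis for each gene, and marker shapes for the replicate; the bar beside the points is the mean ± SD of 3 libraries. The points of DPC and HMC do not overlap for any of the 5 genes, and the 3 arrest genes lie on the opposite side from TOP2A and MCM3.

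CDKN1A (CIP1, ENSBGRG00000011138) stood at 80.7, 71.3 and 77.4 FPKM in DPC replicates 1 to 3, and at 1202, 1185 and 1035 FPKM in the HMC replicates. Every HMC library was far above every DPC library. The means were 76.4 ± 4.77 FPKM in DPC, against 1141 ± 92.2 FPKM in HMC (SD, n = 3 each). The mean was 14.9-fold higher in HMC, a log2 difference of -3.88 (SE 0.07, 95% interval -4.04 to -3.72, limma adjusted p = 6.66e-10). By FPKM, CDKN1A ranked between 1060 and 1195 among the genes of the DPC libraries and between 62 and 76 in the HMC libraries, so p21 RNA was among the most abundant transcripts of the HMC cultures. The deposited values correspond to 525, 454 and 499 reads in DPC and 8025, 8003 and 7060 reads in HMC, on a gene model of 483 bases.

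MDM2 (ENSBGRG00000022145) stood at 16.8, 17.8 and 17.4 FPKM in the DPC replicates and at 32.9, 34.01 and 33.1 FPKM in the HMC replicates. The replicates of each type lay close together and the types did not overlap. The means were 17.3 ± 0.492 FPKM in DPC, against 33.3 ± 0.603 FPKM in HMC (SD, n = 3 each), 1.93-fold higher in HMC. The log2 difference was -0.91 (SE 0.05, 95% interval -1.02 to -0.79, limma adjusted p = 6.31e-07). The gene model of 4567 bases held between 1033 and 1070 reads in DPC and between 2075 and 2172 reads in HMC.

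CDKN2B (ENSBGRG00000002560) stood at 17.7, 17.7 and 17.3 FPKM in the DPC replicates and at 37.2, 31.8 and 32.1 FPKM in the HMC replicates. The types did not overlap, and HMC replicate 1 was the highest library. The means were 17.6 ± 0.197 FPKM in DPC, against 33.7 ± 3.05 FPKM in HMC (SD, n = 3 each), 1.92-fold higher in HMC. The log2 difference was -0.90 (SE 0.07, 95% interval -1.06 to -0.74, limma adjusted p = 5.4e-06). Its model of 3051 bases held between 706 and 727 reads in DPC and between 1357 and 1569 reads in HMC.

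The 3 of 3 calls have to be read against a table in which most genes differ between the cell types. Of 11883 genes tested, 75.9% were called and 46.2% were called higher in HMC, and in 77.9% the groups did not overlap, so a call toward HMC alone sets none of the 3 genes apart. The sizes differed more. A log2 difference at least as far toward HMC as that of CDKN1A was reached by 2.36% of tested genes, whereas 17.8% reached that of MDM2 and 17.9% that of CDKN2B. Of tested genes, 27.1% were called with at least a 2-fold difference, 11% higher in DPC and 16.1% higher in HMC, with CDKN1A among them and MDM2 and CDKN2B just short of that limit.

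**Figure D2:**
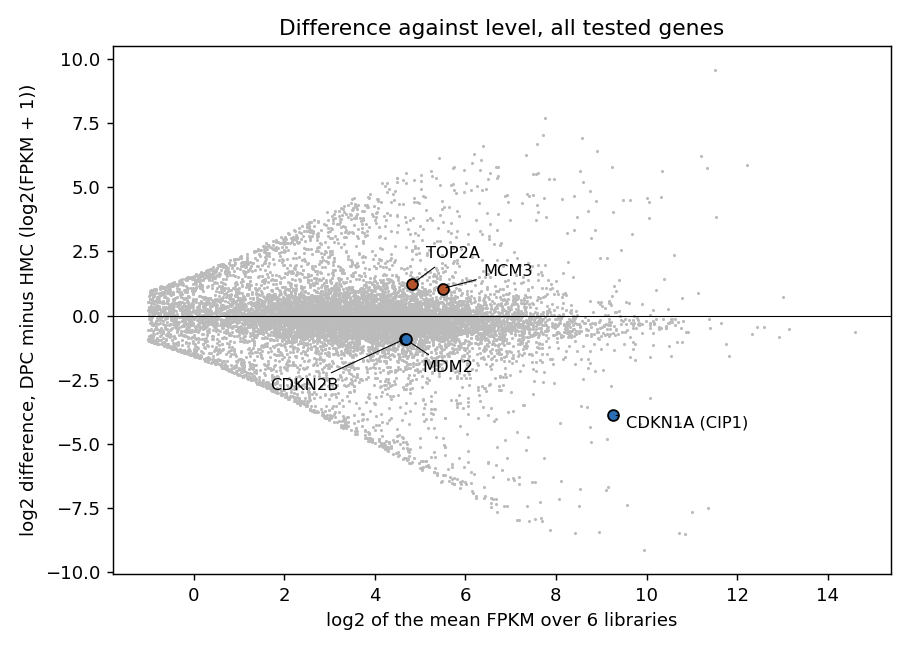
Log2 difference in log2(FPKM + 1), DPC minus HMC (y axis), against log2 of the mean FPKM over the 6 libraries (x axis) for the 11883 tested genes, one grey point per gene, with the 3 arrest genes in blue and TOP2A and MCM3 in orange. CDKN1A lies at -3.88 among abundant genes, while MDM2 and CDKN2B lie almost on one point, at -0.91 and -0.90.

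The sizes also depend on how the libraries are scaled. The median difference of all tested genes was -0.15 for the deposited FPKM, -0.02 under median-of-ratios scaling and 0.05 after quantile normalization, and 39.1%, 48.8% and 53.8% of the calls were then higher in DPC. Under the same scalings CDKN1A stood at -3.88, -3.73 and -3.60, MDM2 at -0.91, -0.76 and -0.68, and CDKN2B at -0.90, -0.75 and -0.66, and each remained past the threshold.

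Within a cell type the order of the levels per length was CDKN1A first, with MDM2 and CDKN2B level behind it. CDKN1A had 4.81, 4.01 and 4.46 times the FPKM of MDM2 in the DPC replicates, and 36.6, 34.8 and 31.3 times in the HMC replicates. Against CDKN2B, CDKN1A had 4.56, 4.04 and 4.47 times the FPKM in DPC and 32.3, 37.3 and 32.3 times in HMC. These ratios are taken inside a library and do not depend on its scaling. MDM2 and CDKN2B could not be ordered. Their ratio was 0.949, 1.01 and 1.00 in the DPC replicates and 0.884, 1.07 and 1.03 in the HMC replicates. Its mean log2 value was -0.02 (SD 0.05) in DPC and -0.01 (SD 0.15) in HMC, a difference of -0.01 that was smaller than the spread between replicates (n = 3 each, exact permutation p = 1, two-sided).

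TOP2A encodes the topoisomerase that untangles DNA before mitosis, and MCM3 a subunit of the replicative helicase. TOP2A (ENSBGRG00000017633) stood at 38.1, 41.0 and 40.8 FPKM in the DPC replicates and at 13.9, 16.1 and 19.9 FPKM in the HMC replicates. MCM3 (ENSBGRG00000020908) stood at 61.6, 60.2 and 62.0 FPKM in DPC, against 26.1, 28.2 and 33.2 FPKM in HMC. Both were higher in every DPC library, and for both HMC replicate 3 was the nearest HMC library to DPC. TOP2A was 2.40-fold higher in DPC (log2 difference 1.23, SE 0.11, limma adjusted p = 1.84e-05) and MCM3 2.10-fold (log2 difference 1.05, SE 0.08, limma adjusted p = 5.79e-06). Both differences run against the median of all genes, and they were 1.38 and 1.204 after median-of-ratios scaling and 1.47 and 1.31 after quantile normalization.

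Set against these references, the arrest genes were further apart, which follows from their opposite differences. TOP2A and MCM3 were among the 4 of 29 tested proliferation genes at least 2-fold higher in DPC. The median log2 difference of the 29 was 0.43, so the sizes of the ratios below hold for these references only. The FPKM of CDKN1A per FPKM of TOP2A was 2.12, 1.74 and 1.90 in the DPC replicates and 86.5, 73.7 and 51.9 in the HMC replicates, a geometric mean 36.2-fold higher in HMC. Per MCM3 it was 1.31, 1.18 and 1.25 in DPC and 46.1, 42.0 and 31.2 in HMC, 31.5-fold higher in HMC. MDM2 and CDKN2B had less RNA per length than TOP2A in DPC and more in HMC. MDM2 per TOP2A was 0.441, 0.434 and 0.426 in DPC and 2.37, 2.12 and 1.66 in HMC, and CDKN2B per TOP2A was 0.464, 0.431 and 0.425 in DPC and 2.68, 1.98 and 1.61 in HMC. The ratios of the members to TOP2A and MCM3 did not overlap between the types. This had to be so, since the members lay wholly higher in HMC and both references wholly higher in DPC. Of 9 ratios compared, 8 reached the exact permutation p of 0.1, two-sided, which is the smallest that the 20 splits of 3 against 3 libraries allow, and 0.113 after Benjamini-Hochberg adjustment over the 9, so the design could not pass 0.05.

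**Figure D3:**
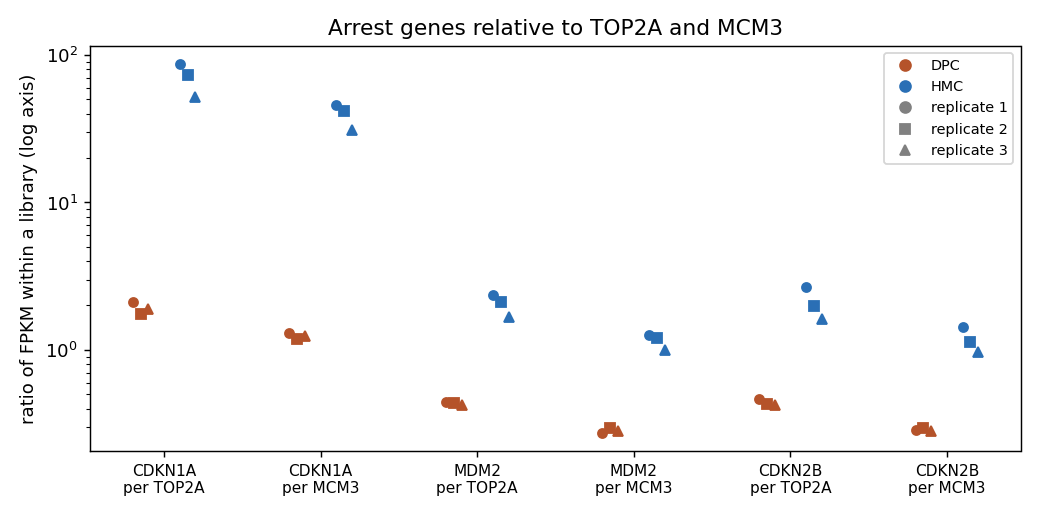
Ratio of the FPKM of each arrest gene to that of TOP2A or MCM3 in the same library, on a log y axis, with DPC in orange left of HMC in blue and marker shapes for the replicate. Each HMC point lies above each DPC point of its ratio, and HMC replicate 3 is the lowest HMC point in all 6 ratios.

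The other CDK inhibitors mostly went against CDKN1A and CDKN2B. Of the 7 inhibitor genes matched in the table, 6 were tested and all were called, beside 75.9% of all tested genes. Of the 6, 4 (66.7%, beside 29.7%) were higher in DPC and 2 (33.3%, beside 46.2%) were higher in HMC. The median log2 difference was 0.55, beside -0.15 over all genes. The 2 higher in HMC were CDKN1A and CDKN2B themselves. CDKN2C (CDKN6, ENSBGRG00000007727), which encodes the CDK4 and CDK6 inhibitor p18, stood at 19.4, 19.4 and 19.1 FPKM in DPC, against 5.96, 5.84 and 5.65 FPKM in HMC cultures (log2 difference 1.57, SE 0.06, limma adjusted p = 4.5e-08). It thus differed in the opposite direction from CDKN2B, a gene of the same inhibitor family. CDKN2D, which encodes p19 of that family, averaged 24.0 ± 1.2 FPKM in DPC, against 15.4 ± 1.44 FPKM in HMC cultures (log2 difference 0.61). CDKN1B (KIP1), which encodes the p21 relative p27, averaged 27.4 ± 0.726 FPKM in DPC, against 19.2 ± 1.01 FPKM in HMC cultures (log2 difference 0.50, limma adjusted p = 7.32e-05). CDKN3, a phosphatase gene that acts on CDKs, averaged 5.21 FPKM in DPC, against 2.34 FPKM in HMC cultures (log2 difference 0.89). CDKN1C (KIP2), which encodes p57, held 8, 5 and 8 reads in the DPC libraries and 2, 0 and 0 reads in the HMC libraries and was below the filter on low values. CDKN2A was not analysed here.

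The summed FPKM of the 7 inhibitor genes was between 164 and 174 in the DPC libraries and between 1107 and 1284 in the HMC libraries. CDKN1A made up between 43.4% and 46.3% of that sum in DPC and between 93.4% and 94.1% in HMC. Without CDKN1A the sum was between 93.1 and 94.8 FPKM in DPC and between 72.9 and 81.6 FPKM in HMC, so the remaining inhibitors together had more RNA in DPC.

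**Figure D4:**
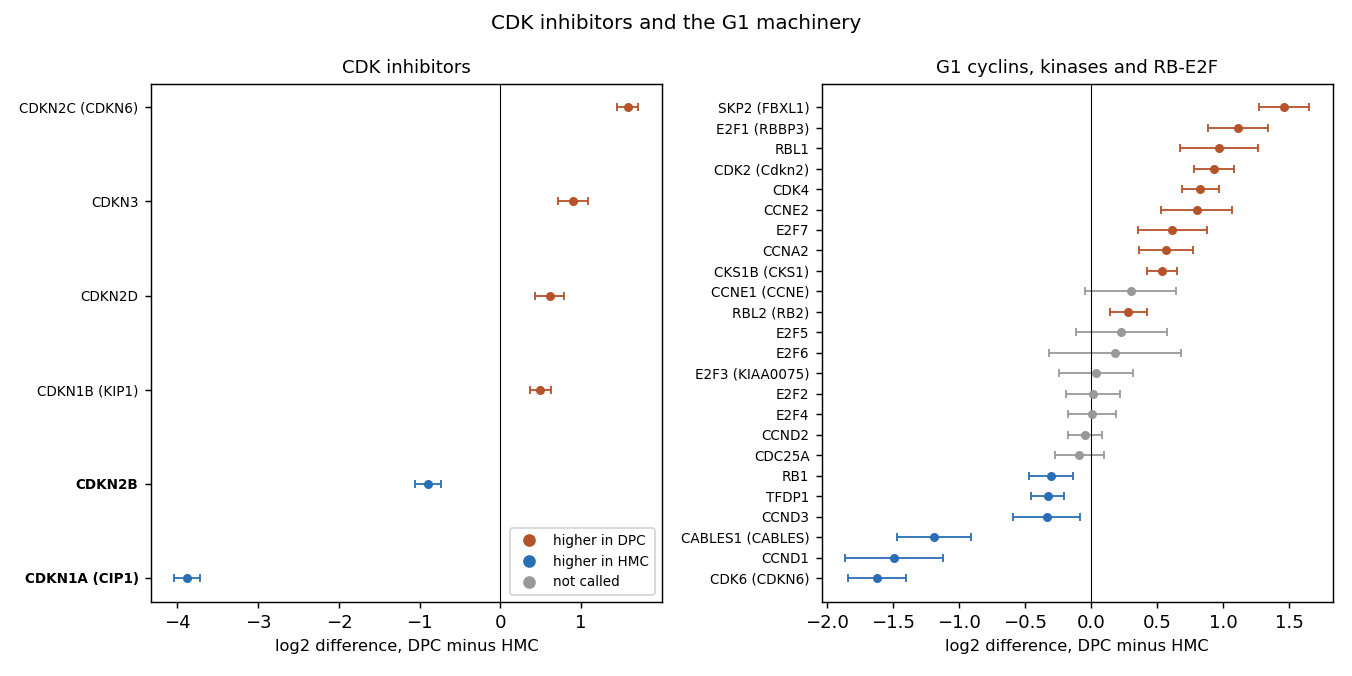
Log2 difference in log2(FPKM + 1), DPC minus HMC, of the tested CDK inhibitor genes (left) and of the tested G1 cyclin, kinase and RB-E2F genes (right); points are estimates and bars 95% intervals from limma, orange for genes called higher in DPC, blue for genes called higher in HMC and grey for genes not called. CDKN1A and CDKN2B are the 2 inhibitor genes to the left of 0, and CDK6 and CCND1 are the furthest to the left among the G1 genes.

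The kinases and cyclins that these inhibitors bind were divided. Of 24 tested genes of G1 control, 10 (41.7%, beside 29.7% of all tested genes) were higher in DPC, 6 (25%, beside 46.2%) were higher in HMC and 8 were not called, with a median log2 difference of 0.20 beside -0.15 over all genes. CDK4 and CDK6 encode the related kinases that p15 binds, and they differed in opposite directions. CDK4 averaged 153 ± 9.86 FPKM in DPC, against 86.1 ± 4.78 FPKM in HMC cultures (log2 difference 0.82, limma adjusted p = 3.87e-06). CDK6 (given as CDKN6, ENSBGRG00000016959) averaged 13.6 ± 1.93 FPKM in DPC, against 43.7 ± 1.30 FPKM in HMC cultures (log2 difference -1.62, limma adjusted p = 8.39e-07). The table gives the symbol CDKN6 to both this row and that of CDKN2C, and the rows were told apart by their pathway annotations. Cyclin D1 (CCND1), a partner of both kinases, stood at 54.4, 76.2 and 45.1 FPKM in DPC, against 165, 159 and 163 FPKM in HMC cultures (log2 difference -1.49, limma adjusted p = 4.61e-05).

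The other D cyclins differed less. CCND2 averaged 49.8 ± 1.61 FPKM in DPC, against 51.4 ± 3.03 FPKM in HMC (SD, n = 3 each), with overlapping groups and a log2 difference of -0.05 that did not pass and turned to 0.11 after median-of-ratios scaling and 0.24 after quantile normalization, where it was called higher in DPC (limma adjusted p = 0.00365). CCND3 averaged 25.3 ± 2.54 FPKM in DPC, against 32.3 ± 4.67 FPKM in HMC cultures (log2 difference -0.34, limma adjusted p = 0.0225), a call that was lost after both rescalings and without any one of DPC replicates 2 and 3 and HMC replicate 1. RB1, which encodes RB, averaged 9.06 ± 0.581 FPKM in DPC, against 11.4 ± 0.569 FPKM in HMC cultures (log2 difference -0.31), and this call was also lost after both rescalings (limma adjusted p = 0.0661 and 0.113).

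CDK2, CCNE2, SKP2 and CKS1B, which act later in G1, were higher in DPC. CDK2 (Cdkn2), the kinase that p21 and p27 hold back, averaged 32.5 ± 0.376 FPKM in DPC, against 16.6 ± 1.33 FPKM in HMC cultures (log2 difference 0.93). Of its partner cyclins, CCNE2 averaged 5.74 FPKM in DPC, against 2.90 FPKM in HMC cultures (log2 difference 0.80), and CCNE1 (CCNE) averaged 10.9 FPKM in DPC, against 8.76 FPKM in HMC, where the log2 difference of 0.30 did not pass (limma adjusted p = 0.104) but did after median-of-ratios scaling (0.0247) and quantile normalization (0.0202). SKP2 (FBXL1), the ubiquitin ligase subunit that marks p27 and p21 for degradation, averaged 22.2 ± 1.44 FPKM in DPC, against 7.47 ± 0.743 FPKM in HMC cultures (log2 difference 1.46, limma adjusted p = 7.73e-07). Its cofactor CKS1B (CKS1), the most abundant gene of the list, averaged 242 FPKM in DPC, against 167 FPKM in HMC cultures (log2 difference 0.54).

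Regulators of p53 were divided, and MDM4, HIPK2 and NUMB had more RNA in HMC, as MDM2 did. MDM4 (MDMX), the partner of MDM2 that also inhibits p53, averaged 5.85 ± 0.650 FPKM in DPC, against 11.5 ± 1.57 FPKM in HMC cultures (log2 difference -0.87, limma adjusted p = 0.000125), close to the difference of MDM2. The kinase gene HIPK2, whose product phosphorylates p53, averaged 2.95 FPKM in DPC, against 7.41 FPKM in HMC cultures (log2 difference -1.09). NUMB, whose product binds p53 and MDM2, averaged 23.9 FPKM in DPC, against 45.5 FPKM in HMC cultures (log2 difference -0.90). Of 20 tested regulators of p53, 7 (35%) were higher in DPC, 9 (45%) were higher in HMC and 4 were not called, shares near those of all tested genes, and the median of -0.12 lay near that of all genes. The most abundant, the ribosomal protein gene RPL23, whose free product binds MDM2, averaged 793 FPKM in DPC, against 997 FPKM in HMC cultures (log2 difference -0.33).

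Many p53 target genes had more RNA in HMC, together with CDKN1A and MDM2. Of 35 tested targets, these 2 included, 9 (25.7%, beside 29.7% of all tested genes) were higher in DPC, 24 (68.6%, beside 46.2%) were higher in HMC and 2 were not called. At least 2-fold higher in DPC were 4 targets (11.4%, beside 11% of all tested genes), and 14 were at least 2-fold higher in HMC (40%, beside 16.1%). The median was -0.87, beside -0.15 over all genes. SFN, which encodes the epithelial cell cycle inhibitor stratifin, stood at 5.96, 4.61 and 5.38 FPKM in DPC, against 557, 529 and 546 FPKM in HMC cultures (log2 difference -6.44, limma adjusted p = 1.22e-10). PERP (KCP1), a gene of desmosomes and apoptosis, averaged 7.44 ± 0.915 FPKM in DPC, against 317 ± 8.46 FPKM in HMC cultures (log2 difference -5.24). SFN and PERP are also epithelial genes, and all 8 epithelial markers read here were higher in HMC as well; their part in these differences was not tested.

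Targets without such an epithelial role lay on both sides, but not evenly. Of the 35 tested targets, SFN and PERP included, 24 were higher in HMC and 9 higher in DPC. The next genes were chosen for their functions after their values were seen, and their numbers on each side do not reflect that proportion. Toward HMC lay PHLDA3 (TIH1), an inhibitor of AKT signalling, at 393 ± 13.7 FPKM in DPC, against 1320 ± 50 FPKM in HMC cultures (log2 difference -1.75), and ZMAT3, an RNA-binding protein gene, at 10.7 ± 1.05 FPKM in DPC, against 35.4 ± 1.85 FPKM in HMC cultures (log2 difference -1.64). Cyclin G1 (CCNG1), a p53 feedback gene, averaged 60.1 ± 2.42 FPKM in DPC, against 132 ± 4.20 FPKM in HMC cultures (log2 difference -1.12). Toward DPC lay the apoptosis effector BAX, at 858 ± 32.7 FPKM in DPC, against 388 ± 8.33 FPKM in HMC cultures (log2 difference 1.15), and GADD45A, a stress gene whose product binds p21 and PCNA, at 158 ± 8.30 FPKM in DPC, against 107 ± 2.50 FPKM in HMC cultures (log2 difference 0.55). The secreted stress factor GDF15 averaged 15.2 ± 0.857 FPKM in DPC, against 4.13 ± 0.811 FPKM in HMC cultures (log2 difference 1.67).

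**Figure D5:**
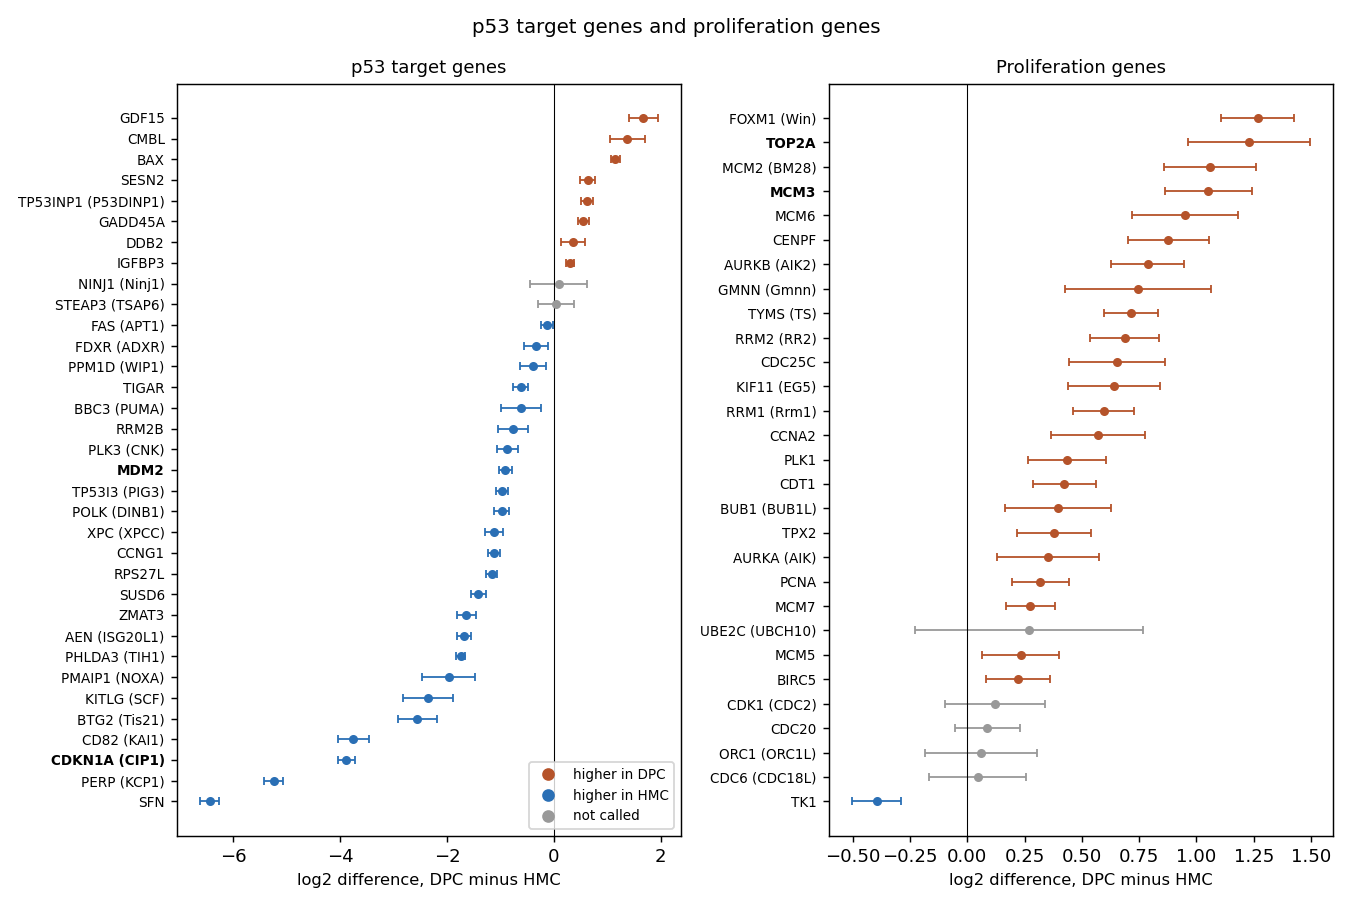
Log2 difference in log2(FPKM + 1), DPC minus HMC, of the p53 target genes reported here (left) and proliferation genes (right), with 95% intervals from limma, orange for genes called higher in DPC, blue for genes called higher in HMC and grey for genes not called. Most targets lie left of 0, with only SFN and PERP below CDKN1A, and most proliferation genes lie right of 0, with TK1 alone called on the left.

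The p53 pathway as the table's own annotation defines it lay near all genes in its calls, but not in its larger differences. Of its 62 tested genes, 19 (30.6%) were higher in DPC, 31 (50%) were higher in HMC and 12 were not called, shares close to the 29.7% and 46.2% of all tested genes, and its median of -0.15 was that of all genes. At least 2-fold higher in DPC were 4 of its genes (6.45%, beside 11% of all genes), and 16 were at least 2-fold higher in HMC (25.8%, beside 16.1%). Among the 16, reprimo (RPRM), a mediator of arrest in G2, held 0, 0 and 1 reads in the DPC libraries and 88, 83 and 97 reads in the HMC libraries. The row called PI5 averaged 0.284 ± 0.115 FPKM in DPC, against 20.0 ± 2.38 FPKM in HMC (SD, n = 3 each). The part of epithelial identity in the differences of RPRM and PI5 was not tested. The cell cycle pathway of the same annotation had 117 tested genes. Of these, 51 (43.6%, beside 29.7% of all tested genes) were higher in DPC and 35 (29.9%, beside 46.2%) were higher in HMC. Its median was 0.09, beside -0.15 over all genes.

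Most proliferation genes followed TOP2A and MCM3 in direction, but with smaller differences. Of 29 tested, those 2 included, 23 (79.3%, beside 29.7% of all tested genes) were higher in DPC, 1 (3.45%, beside 46.2%) was higher in HMC and 5 were not called. At least 2-fold higher in DPC were 4 (13.8%, beside 11% of all tested genes), and 0 were at least 2-fold higher in HMC (beside 16.1%). The median was 0.43, beside -0.15 over all genes. TOP2A and MCM3 were among the 4 genes at least 2-fold higher in DPC. The 5 genes not called overlapped between the types. They were UBE2C (log2 difference 0.27), CDK1 (0.12), CDC20 (0.09), ORC1 (0.06) and CDC6 (0.04). CDK1 and CDC20 were called higher in DPC after median-of-ratios scaling and after quantile normalization. FOXM1 (Win), a transcription factor of the mitotic programme, averaged 23.7 ± 0.597 FPKM in DPC, against 9.27 ± 0.743 FPKM in HMC cultures (log2 difference 1.27), and the helicase gene MCM2 (BM28) averaged 74.8 ± 3.61 FPKM in DPC, against 35.5 ± 4.55 FPKM in HMC cultures (log2 difference 1.06). PCNA, the sliding clamp that p21 also binds and the most abundant gene of the list, averaged 179 ± 3.72 FPKM in DPC, against 144 ± 10.2 FPKM in HMC cultures (log2 difference 0.32, limma adjusted p = 0.000752). The gene called higher in HMC was the thymidine kinase gene TK1, at 55.9 ± 1.75 FPKM in DPC, against 73.8 ± 2.60 FPKM in HMC cultures (log2 difference -0.40).

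The HMC libraries differed among themselves in these genes. HMC replicate 3 was the highest HMC library for 28 of the 29 proliferation genes (96.6%), beside 37.1% of all tested genes and 41.6% of the genes called higher in DPC, and the exception was BIRC5. The same library had the lowest CDKN1A of the HMC replicates, 1035 FPKM against 1202 and 1185 FPKM. Of the 24 p53 targets called higher in HMC, 14 (58.3%) were lowest in replicate 3, beside 40.4% of all genes called higher in HMC. It also stood apart from the other HMC libraries on the second principal component of all genes, at 13.9 against -9.33 and -4.28, although that component held only 0.77% of the variance, whereas the first held 97.4% and separated the cell types. Without HMC replicate 3 the log2 differences were -3.95 for CDKN1A, -0.91 for MDM2, -0.93 for CDKN2B, 1.36 for TOP2A and 1.15 for MCM3. With 3 libraries a relation between CDKN1A and the proliferation genes within HMC was not tested.

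Known inputs to CDKN2B and CDKN1A transcription were split between the types. Of 29 tested, 14 (48.3%, beside 29.7% of all tested genes) were higher in DPC, 10 (34.5%, beside 46.2%) were higher in HMC and 5 were not called, with a median of 0.16 beside -0.15 over all genes. The receptors of TGF-beta, which induces CDKN2B in epithelial cells, were higher in HMC. TGFBR2 stood at 18.9, 19.3 and 20.3 FPKM in DPC, against 159, 159 and 150 FPKM in HMC cultures (log2 difference -2.93, SE 0.05, limma adjusted p = 4.97e-10), and TGFBR1 averaged 28.3 ± 1.01 FPKM in DPC, against 52.2 ± 4.23 FPKM in HMC cultures (log2 difference -0.86). The ligand genes were split. TGFB2 averaged 10.4 FPKM in DPC, against 27.3 FPKM in HMC cultures (log2 difference -1.32), whereas TGFB3 averaged 8.51 FPKM in DPC, against 2.34 FPKM in HMC cultures (log2 difference 1.51) and TGFB1 averaged 47.9 FPKM in DPC, against 40.8 FPKM in HMC cultures (log2 difference 0.23).

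The transcription factors of that list were also divided. SMAD3 (MADH3), which carries the TGF-beta signal to DNA, averaged 56.6 ± 3.16 FPKM in DPC, against 41.5 ± 2.33 FPKM in HMC cultures (log2 difference 0.44). MYC, a repressor of both CDKN2B and CDKN1A as well as a driver of growth, averaged 65.5 ± 2.08 FPKM in DPC, against 146 ± 9.37 FPKM in HMC cultures (log2 difference -1.14). The part of MYC in the levels of CDKN2B and CDKN1A was not tested. KLF4 (EZF), an activator of CDKN1A, averaged 35.2 ± 2.89 FPKM in DPC, against 2.22 ± 0.527 FPKM in HMC cultures (log2 difference 3.50), opposite in direction to CDKN1A. TFAP2A, an epithelial activator of CDKN1A, averaged 2.23 ± 0.397 FPKM in DPC, against 20.9 ± 1.91 FPKM in HMC cultures (log2 difference -2.76). CEBPB, the most abundant of the list, averaged 176 FPKM in DPC, against 109 FPKM in HMC cultures (log2 difference 0.68). SMAD3, MYC, and the TGF-beta ligands and receptor TGFBR1 were named here for their roles, after their values were seen.

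Genes whose pattern over the 6 libraries was most like each member were sought among 8602 genes with a symbol and a mean of at least 5 FPKM. For CDKN1A these were VWA1, ABHD14B and Inava, with Pearson correlations of 0.99995, 0.99992 and 0.99991 on log2(FPKM + 1), for MDM2 PDHB, UNQ170/PRO196 and GRP58 (0.99997, 0.99992 and 0.99986), and for CDKN2B C19orf24, TRIO and ENT3 (0.99959, 0.9989 and 0.99879). Such values were common between 2 cell types this far apart, since 1607, 1484 and 430 genes exceeded 0.99 for CDKN1A, MDM2 and CDKN2B, and they describe 6 libraries only.

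The cultures matched their labels in broad type. All 8 mesenchyme markers were higher in DPC, with a summed level of 20110 to 20627 FPKM in DPC, against 573 to 696 FPKM in HMC, and all 8 epithelium markers were higher in HMC, at 67.6 to 85.0 FPKM in DPC, against 13687 to 14086 FPKM in HMC. The leading epithelial genes were the simple keratins KRT7, KRT8, KRT18 and KRT19. LEF1 and MSX2, genes expressed in the matrix, were looked up after the other values were seen and lay on both sides. These genes alone do not decide whether the HMC cultures kept matrix identity. LEF1 was between 0.796 and 1.25 FPKM in DPC and between 5.74 and 6.08 FPKM in HMC, whereas MSX2 was between 5.45 and 7.08 FPKM in DPC and between 2.38 and 2.63 FPKM in HMC. Of 6 tested endothelial, melanocyte and immune markers, 1 (16.7%, beside 29.7% of all tested genes) was higher in DPC and 4 (66.7%, beside 46.2%) were higher in HMC. The summed level of the 10 matched markers, untested ones included, was 16.4 to 16.7 FPKM in DPC, against 19.4 to 26.5 FPKM in HMC. The endothelial and melanocyte genes PECAM1, KDR, CDH5 and MLANA were at or near 0 in both types, with no mean above 0.172 FPKM, but other genes of the list were not. LAPTM5, an immune cell gene, averaged 9.46 ± 0.264 FPKM in DPC, against 0.257 ± 0.167 FPKM in HMC cultures (log2 difference 3.07). The macrophage gene AIF1 averaged 0.0511 ± 0.0443 FPKM in DPC, against 6.48 ± 1.55 FPKM in HMC cultures (log2 difference -2.81), and the monocyte gene CD14 averaged 2.47 ± 0.412 FPKM in DPC, against 10.1 ± 1.90 FPKM in HMC cultures (log2 difference -1.67). The endothelial gene VWF averaged 0.0355 FPKM in DPC, against 1.09 FPKM in HMC, and the melanocyte gene PMEL (PMEL17) 2.98 FPKM in DPC, against 3.97 FPKM in HMC. The part of such cells in the differences of the arrest genes was not tested. The part of cell type identity in the difference of CDKN1A was not tested.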

How the data were processed

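Stranded mRNA libraries from 3 DPC and 3 HMC cultures were sequenced, per the labels' protocols. The authors deposited FPKM for 15646 genes with 1 column per library. Per the submitters' processing notes, Trimmomatic, HISAT2 2.2.1.0 and DESeq 1.20.0 were used, and the sources used here do not give the read counter, its strand setting, the genome build or the annotation. Reads of overlapping antisense RNA therefore could not be told apart. FPKM does not correct for RNA composition.

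Each gene's values were whole multiples of one step in all libraries for 100% of genes (relative tolerance 1e-09), which gave back reads and gene lengths. They came to 13.1 to 13.4 M reads in DPC and 13.7 to 14.0 M in HMC. Genes averaging 0.5 FPKM or more were compared on log2(FPKM + 1) with limma 3.58.1 in R 4.3.3 (trended prior variance, two-sided, Benjamini-Hochberg over 11883 genes, threshold 0.05). On this scale the differences of low genes come out too small. Ratios within a library were compared by exact permutation with scipy 1.17.1 in Python 3.11.15. The fit was tested on simulated data. FPKM steps gave whole reads, but a count model was run only as an alternative (limma-voom).

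The members and 11 gene lists were chosen with earlier results of these data known, and lists are described by counts and medians. Of 238 listed symbols, 207 were matched to the table, partly through older symbols, given in parentheses, read against the row's annotation. The others were not analysed here. Named genes are the members, TOP2A, MCM3, the CDK inhibitors, a set of p53 and G1 genes, of each list up to 3 called genes of largest difference and the most abundant, and the 3 genes most like each member; others are stated as chosen after their values were seen. Some genes that this rule selects are not reported here, though list counts include them. Alternatives were a pseudocount of 0.1, no filter or a filter at 5 FPKM, median-of-ratios scaling, quantile normalization, no trend, voom, a replicate block and each library left out.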

Additional observations from a re-analysis of the deposited data

How the results depend on the processing

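CDKN1A, MDM2, CDKN2B, TOP2A and MCM3 kept their direction and stayed past the threshold under all 14 alternatives. The log2 difference of CDKN1A ranged between -3.95 and -3.60 (limma adjusted p between 8.64e-14 and 7.16e-08), that of MDM2 between -0.95 and -0.68 (4.81e-10 to 1.62e-05) and that of CDKN2B between -0.94 and -0.66 (2.66e-08 to 6e-05). The ratio of MDM2 to CDKN2B, added after the data were seen, differed by -0.01, and by -0.0915 to 0.0461 with a library left out, and turned to 0.02 without DPC replicate 1, 0.05 without HMC replicate 2 and 0.02 without HMC replicate 3. After quantile normalization 5 p53 regulators were higher in HMC (9 with FPKM as deposited) and 3 G1 genes (6 as deposited). Of the other-cell markers, 0 were higher in DPC with a filter at 5 FPKM and 2 with no filter (1 in the report), and 1 was higher in HMC with the filter at 5 FPKM (4 in the report, 2 to 4 with a library left out, with 2 without HMC replicate 1 and 2 without HMC replicate 2). CCND2 turned to 0.11 after median-of-ratios scaling and 0.24 after quantile normalization, past the threshold in the second; the cause of these changes was not tested. Of the other values under an alternative, for single genes selected by the naming rule, 713 kept direction and side, 7 lost a call (CCND3 and RB1) and 2 gained one (CCNE1). Deviations from the group means correlated at 0.02, 0.03 and 0.01 between same-numbered libraries. Between differently numbered libraries they correlated at -0.04 to 0.01. The labels name no donors, so whether replicate numbers pair the samples could not be decided. With the replicate block, 3473 genes were called toward DPC and 5451 toward HMC, beside 3531 and 5489 without it, and the block changed no call of the members. CDKN1A has a short gene model of 483 bases, so its level per length depends on that model. The read counts limit CDKN1C and RPRM, with under 10 reads in each DPC library. With 3 libraries a group, the permutation test cannot go below 0.1.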

Other observations

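Secreted factors that arrested cells are known to release were divided between the cultures. Of 23 tested genes of the senescence and secretory list, 9 (39.1%, beside 29.7% of all tested genes) were higher in DPC, 13 (56.5%, beside 46.2%) were higher in HMC and 1 was not called, with a median log2 difference of -0.59 beside -0.15 over all genes. At least 2-fold higher in DPC were 7 (30.4%, beside 11% of all tested genes), and 10 were at least 2-fold higher in HMC (43.5%, beside 16.1%). The growth factor AREG, a ligand of the EGF receptor, averaged 0.330 ± 0.00356 FPKM in DPC, against 230 ± 14.0 FPKM in HMC cultures (log2 difference -7.44, limma adjusted p = 4.39e-11). The cytokine LIF averaged 2.28 ± 0.223 FPKM in DPC, against 263 ± 9.71 FPKM in HMC cultures (log2 difference -6.33), and IL6 averaged 7.08 ± 0.881 FPKM in DPC, against 229 ± 5.81 FPKM in HMC cultures (log2 difference -4.84). These 3 genes are also growth and inflammatory signals outside senescence. Toward DPC lay GLB1, the lysosomal beta-galactosidase whose activity is used as a stain for senescent cells, at 103 ± 2.81 FPKM in DPC, against 44.7 ± 3.69 FPKM in HMC cultures (log2 difference 1.18). Lamin B1 (LMNB1), whose loss accompanies senescence, averaged 67.1 ± 1.48 FPKM in DPC, against 49.1 ± 4.78 FPKM in HMC cultures (log2 difference 0.45). The secreted factors CCL2, TIMP1 and TIMP2 of the list lay further toward DPC, with log2 differences of 3.71, 3.18 and 3.01. TIMP1 averaged 1481 FPKM in DPC, against 163 FPKM in HMC cultures. CCL2, TIMP1, TIMP2, GLB1 and LMNB1 were named after their values were seen. The senescence pathway of the table's annotation, with 139 tested genes, had 45 (32.4%) higher in DPC and 63 (45.3%) higher in HMC, near the shares of all tested genes.

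Genes of the DNA damage response leaned toward DPC, as the proliferation genes did, whereas CDKN1A and MDM2 were higher in HMC. Of 22 tested, 14 (63.6%, beside 29.7% of all tested genes) were higher in DPC, 6 (27.3%, beside 46.2%) were higher in HMC and 2 were not called, with a median of 0.35 beside -0.15 over all genes. The part of proliferation in this lean was not tested. GADD45G, a stress gene that slows the cycle, averaged 14.96 ± 3.80 FPKM in DPC, against 3.26 ± 1.44 FPKM in HMC cultures (log2 difference 1.93, limma adjusted p = 0.00015). CLSPN, an adaptor of the replication checkpoint, averaged 10.1 ± 0.661 FPKM in DPC, against 5.21 ± 0.767 FPKM in HMC cultures (log2 difference 0.84). CDC25B (CDC25HU2), a phosphatase that activates CDKs, averaged 19.2 ± 1.26 FPKM in DPC, against 39.9 ± 2.24 FPKM in HMC cultures (log2 difference -1.02). The histone gene H2AX, the most abundant of the list, averaged 67.7 ± 8.81 FPKM in DPC, against 114 ± 4.83 FPKM in HMC cultures (log2 difference -0.75). The checkpoint kinase ATM, which activates p53 after DNA breaks, averaged 3.22 ± 0.0782 FPKM in DPC, against 2.64 ± 0.0242 FPKM in HMC cultures (log2 difference 0.21), and CHEK2 (CDS1), the kinase it activates, averaged 4.10 FPKM in DPC, against 4.19 FPKM in HMC with overlapping groups and did not pass (limma adjusted p = 0.797). ATM and CHEK2 were named for their roles, after their values were seen.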
